A study of Mus musculus with 6 samples.

Results

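Mitosis genes encode the cyclins, kinases, checkpoint proteins, kinetochore parts, motors and chromosome proteins with which a cell divides its chromosomes. Here 51 of them, chosen by gene symbol, were followed among the 31253 features of a single-cell RNA sequencing study of sorted mouse bone marrow. All 51 symbols were found, each at 1 feature, on 18 chromosomes of the mouse genome. The study set 3 samples labelled Txnip knock-out (Txnip-KO 1, 2 and 3) against 3 labelled wildtype (WT 1, 2 and 3). Flushed marrow was strained, enriched and then sorted on a flow cytometer before libraries were made with version 3.1 of the Chromium Single Cell 3' chemistry. The strain, the age, the sorted population, the deleted part of Txnip and whether samples of a genotype came from separate animals are not stated in the labels, so p-values measure the spread between these samples, which may be technical. The product of Txnip is an alpha-arrestin known to bind thioredoxin and to restrain glucose uptake.

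Entry into mitosis is set by Cdk1 bound to cyclin A or B, which Cdc25 phosphatases switch on. Kinetochores, built on the centromere, then hold chromosomes to spindle microtubules, and the checkpoint keeps the anaphase-promoting complex off until every chromosome is attached. Most of these genes are transcribed late in the cell cycle, so in marrow their RNA is known mainly from dividing progenitors, while long-term stem cells and mature lymphocytes divide rarely.

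After filtering, 6023, 7827 and 7655 cells of Txnip-KO 1, 2 and 3 and 6190, 7020 and 6798 cells of WT 1, 2 and 3 were kept, 41513 of 48277 barcodes. Median UMIs (unique molecular identifiers, 1 per counted molecule) per kept cell were 8187, 7834 and 6932 in Txnip-KO and 8918, 9176.5 and 8934 in WT, so Txnip-KO cells were sampled less deeply. Txnip itself had 585, 666 and 28 UMIs in Txnip-KO, against 19607, 14903 and 18717 UMIs in WT, or 10, 9.5 and 0.45 CPM in Txnip-KO and 311, 215 and 285 CPM in WT, so the group labels hold, although Txnip-KO 3 lay well under Txnip-KO 1 and 2. CPM stands for UMIs per 1000000 UMIs, scaled between samples by edgeR's TMM method for single genes and by total UMIs for sums over genes. Values of 3 samples are given in the order 1, 2 and 3. Cells were placed in 14 types by marker gates, and 83.9% of kept cells passed exactly 1 gate. Each gate had at least 4 of its markers more than 2-fold above other cells, which is no test since the gates use these markers.

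The members were concentrated in dividing cells. A cell was counted as dividing when it held at least 2 UMIs of Mki67, the nuclear protein Ki-67 that coats mitotic chromosomes, and Top2a, the topoisomerase that untangles sister chromatids, counted as a sum. This gate took 8093 cells, 3200 of Txnip-KO and 4893 of WT. Mki67 and Top2a are therefore described but not tested in dividing cells, which leaves 49 members there. Summed over these 49, dividing cells held 6715, 6802 and 6619.7 CPM in Txnip-KO and 7711, 7867 and 7574 CPM in WT. The other cells held 1197, 1447 and 1321 CPM in Txnip-KO and 1574, 1748 and 1699 CPM in WT. The ratio of dividing to other cells had a median of 21.2 over the 49 members in Txnip-KO and 15.1 in WT. It was lowest for Smc4 in Txnip-KO (2.65) and for Cks2 in WT (2.89), and highest for Ccna2 in both (107 in Txnip-KO and 70.5 in WT). Around the gate, sums were taken over all members, with Mki67 and Top2a included. Cells just under the gate, with 1 such UMI, held 1957 CPM in Txnip-KO and 2505 CPM in WT. Cells just inside it, with 2 UMIs, held 2661 CPM in Txnip-KO and 3423 CPM in WT. Part of this rise is built in, since the sums count the gate genes. They cannot be set beside the sums over 49 members.

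Promoters of the members were searched for short sequences that late cell cycle genes are known for, the cell cycle homology region (TTTGAA or TTCGAA, bound by the MuvB complex) and the CCAAT box (bound by NF-Y). RefSeq promoter sequences of build GRCm38.p6 were found for 43 of 51 members. Within 250 bases upstream of the start and on either strand, TTTGAA or TTCGAA stood in 16 members (37.2%), against 19.6% of 27025 genes. CCAAT stood in 31 members (72.1%), against 37.5% of these genes, and both motifs in 15 (34.9%), against 7.93%. A set of 6 of these promoters are shown, 4 with both motifs and 2 whose window below holds CCAAT alone, as the 100 bases upstream of the start, 5′ to 3′, with capitals for TTTGAA or TTCGAA and for CCAAT, on either strand. They are Cdk1 (chr10:69352913-69353012, minus strand), Ube2c (chr2:164769829-164769928, plus strand), Cdc20 (chr4:118437344-118437443, minus strand), Top2a (chr11:99024190-99024289, minus strand), Ccnb2 (chr9:70421555-70421654, minus strand) and Cenpa (chr5:30666786-30666885, plus strand).
Cdk1: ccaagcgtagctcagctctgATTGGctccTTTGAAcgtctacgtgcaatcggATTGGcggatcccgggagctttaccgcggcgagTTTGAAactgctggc
Ube2c: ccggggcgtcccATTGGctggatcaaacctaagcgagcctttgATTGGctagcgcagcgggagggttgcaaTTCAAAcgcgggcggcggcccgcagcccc
Cdc20: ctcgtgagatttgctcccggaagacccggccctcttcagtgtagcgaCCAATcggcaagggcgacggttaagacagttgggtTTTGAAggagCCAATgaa
Top2a: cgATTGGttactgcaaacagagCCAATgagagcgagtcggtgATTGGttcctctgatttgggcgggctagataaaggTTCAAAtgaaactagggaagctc
Ccnb2: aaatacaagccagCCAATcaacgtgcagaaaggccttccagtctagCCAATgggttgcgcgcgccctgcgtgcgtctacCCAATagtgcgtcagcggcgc
Cenpa: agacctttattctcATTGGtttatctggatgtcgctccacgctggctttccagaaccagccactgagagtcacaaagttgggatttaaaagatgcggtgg

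The log2 fold change over all kept cells, Txnip-KO over WT, had a median of -0.76 in members with TTTGAA or TTCGAA and -0.61 in those without, and of -0.69 with CCAAT and -0.61 without. In dividing cells these medians were -0.26 and -0.18 for TTTGAA or TTCGAA, and -0.23 and -0.19 for CCAAT. These are descriptions of letters in a window, with no test.

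Over all kept cells 47 of 51 members were lower in Txnip-KO and 0 higher, where 19.3% of the 14648 genes tested were lower and 21.8% higher (edgeR quasi-likelihood test on UMIs summed per sample, Benjamini-Hochberg adjusted p under 0.05). The median log2 fold change was -0.68 over the members and 0.037 over all genes tested. Adjusted p of the edgeR calls ran from 0.000726 for Knstrn to 0.0396 for Kif20b. The 49 members without Mki67 and Top2a summed to 2693, 3052 and 2747 CPM in Txnip-KO and 4317, 4369 and 3933 CPM in WT, so every Txnip-KO sample lay below every WT sample. In such sums over cells, fewer dividing cells and less RNA per dividing cell cannot be told apart. Among dividing cells 27 of 49 members were lower (18.9% of 12807 genes) and 1 higher (18.9%), with a median of -0.23 against 0.022 over all genes. That count of lower members was 14 without WT 2 and 14 in cells with at least 4 UMIs of Mki67 and Top2a, settings in which 20.4% and 36% of all genes were called in either direction. In cells with no UMI of either gene, an alternative chosen after seeing the data, 13 of 47 members tested were lower. There 32.2% of all genes were called in either direction (41.1% over all kept cells). A share of both directions does not match a count of lower members, so that count is not read as a result about the members. The same limit holds for the counts of the other settings here. Txnip-KO cells were shallower and their types stood in other proportions. With each cell thinned to 1000 UMIs 39 members were lower (23% of all genes called in either direction), and with equal numbers of each type drawn from every sample 46 (43.6%).

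**Figure D1:**
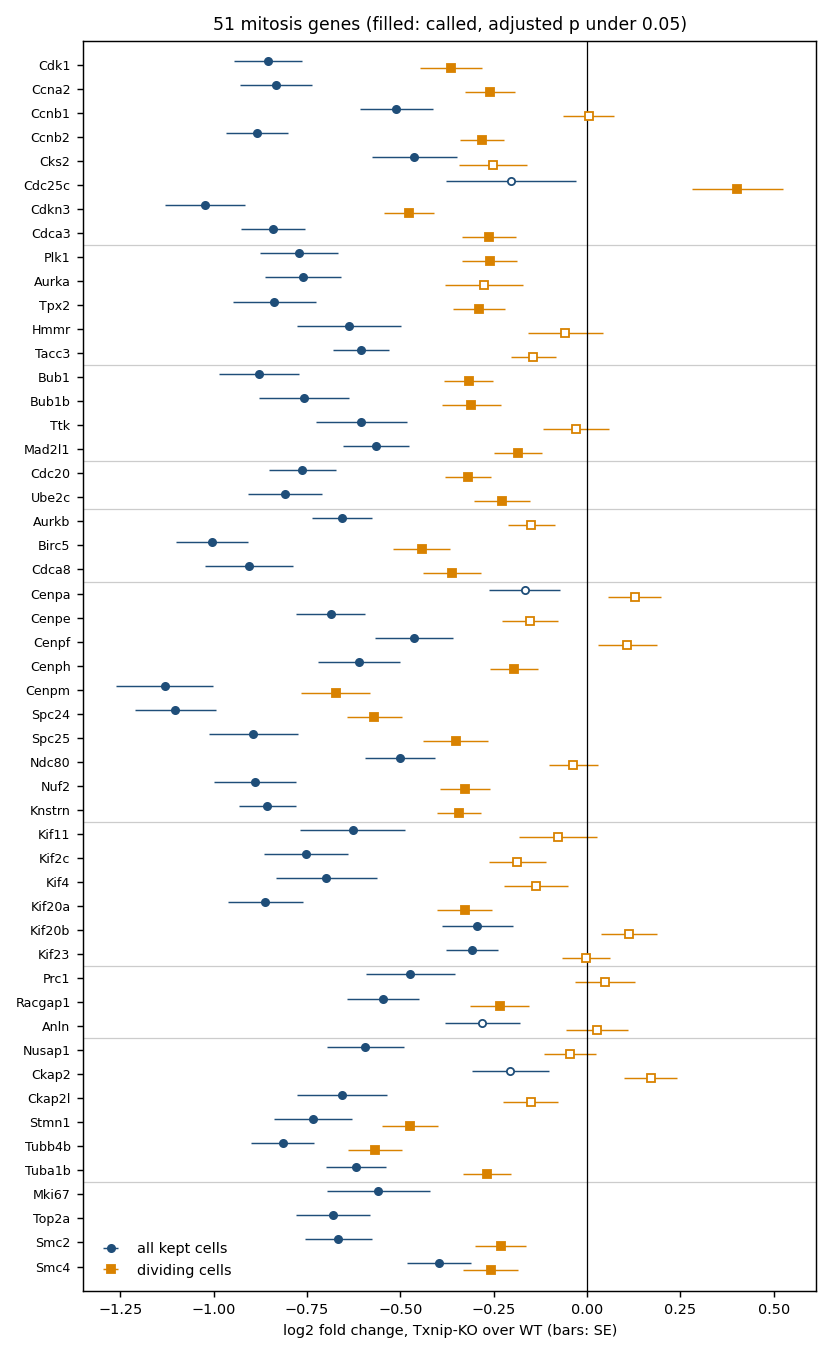
Log2 fold change (Txnip-KO over WT) of each of 51 mitosis genes over all kept cells (circles) and in dividing cells (squares), with bars for 1 SE and filled marks where the edgeR call passed, ordered by role. Over all kept cells 47 marks are filled and all lie left of 0, while in dividing cells the squares lie nearer to 0 and 27 of 49 are filled on the left.

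Among the genes of the cyclin-CDK switch, 7 of 8 members were lower over all kept cells (median -0.84), and 5 of 8 lower and 1 higher in dividing cells (median -0.26). Cdk1 (chr10:69335146-69352912 on GRCm38), the kinase that drives entry into mitosis, had 31.6, 38.7 and 38.1 CPM in Txnip-KO and 66.5, 68.1 and 61.6 CPM in WT. Each Txnip-KO sample lay below each WT sample (log2 fold change -0.86, SE 0.091, edgeR adjusted p = 0.00102). In dividing cells Cdk1 had 99.5, 112 and 122 CPM in Txnip-KO and 137, 146 and 146 CPM in WT, and the groups stayed apart (log2 fold change -0.36, SE 0.084, edgeR adjusted p = 0.00957). Ccnb2, cyclin B2, a partner of Cdk1, had 23.7, 28.7 and 25 CPM in Txnip-KO and 49.2, 48.4 and 45.3 CPM in WT (log2 fold change -0.88, SE 0.083, edgeR adjusted p = 0.000783). In dividing cells its difference was smaller, at 80.5, 85.1 and 82.6 CPM in Txnip-KO, against 99.99, 99.9 and 102 CPM in WT (log2 fold change -0.28, SE 0.059, edgeR adjusted p = 0.00677), still without overlap. Cks2, a small subunit that binds cyclin-dependent kinases, had 139.7, 176 and 189.9 CPM in Txnip-KO and 217, 246 and 234 CPM in WT (log2 fold change -0.46, SE 0.12, edgeR adjusted p = 0.0142). In dividing cells Cks2 had 279, 327 and 341 CPM in Txnip-KO and 349, 387 and 392 CPM in WT, groups that did not overlap but were not called (log2 fold change -0.25, SE 0.091, edgeR adjusted p = 0.0539). Cdc25c, the phosphatase that activates Cdk1, went the other way in dividing cells, with 12.4, 14.1 and 13.1 CPM in Txnip-KO and 10.6, 11 and 8.28 CPM in WT. Cdc25c was the 1 member called higher there (log2 fold change 0.40, SE 0.12, edgeR adjusted p = 0.0287), a call that ended without Txnip-KO 2 or WT 3 and without cells of no gate or several gates. Cdc25c over all kept cells had 3.43, 4.34 and 3.6 CPM in Txnip-KO and 4.79, 4.92 and 3.4 CPM in WT, and the groups overlapped (log2 fold change -0.20, SE 0.18, edgeR adjusted p = 0.375). Ccna2 (cyclin A2, -0.83 over all kept cells and -0.26 in dividing cells), Cdkn3 (-1.02 and -0.48), a phosphatase that acts on cyclin-dependent kinases, and Cdca3 (-0.84 and -0.26), a trigger of mitotic entry, were lower in both. Ccnb1, cyclin B1, was lower over all kept cells (-0.51), while in dividing cells it was at 0.0046 and not called. Cks2 lost its call over all kept cells without WT 2 or WT 3. Ccna2 lost its dividing-cell call without WT 2 and Cdca3 without WT 1, WT 2 or WT 3.

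Of the mitotic kinases and the proteins that build the spindle with them, 5 of 5 members were lower over all kept cells (median -0.76), and 2 of 5 lower in dividing cells (median -0.26). Tpx2, which activates Aurora A and seeds spindle microtubules, had 29.5, 35.2 and 28.8 CPM in Txnip-KO and 61.1, 58.1 and 48.1 CPM in WT (log2 fold change -0.84, SE 0.11, edgeR adjusted p = 0.00173). Its Txnip-KO samples also lay below WT in dividing cells, at 102, 108 and 99.5 CPM in Txnip-KO, against 132, 129 and 118 CPM in WT (log2 fold change -0.29, SE 0.071, edgeR adjusted p = 0.0121). Hmmr, a spindle protein, had 17.6, 20.2 and 19.7 CPM in Txnip-KO and 35.6, 30.3 and 23.6 CPM in WT, with no overlap of the groups (log2 fold change -0.64, SE 0.14, edgeR adjusted p = 0.00854). In dividing cells Hmmr overlapped between groups, at 63.4, 65 and 71.5 CPM in Txnip-KO, against 79.1, 69 and 60 CPM in WT, and was not called (log2 fold change -0.059, SE 0.10, edgeR adjusted p = 0.669). Tacc3, which bridges microtubules of kinetochore fibres, had 18.2, 20.4 and 18.1 CPM in Txnip-KO and 30.6, 28.2 and 27.6 CPM in WT (log2 fold change -0.61, SE 0.076, edgeR adjusted p = 0.00152). In dividing cells Tacc3 kept apart but was not called, at 52.7, 53.6 and 55.7 CPM in Txnip-KO, against 61, 57.1 and 61 CPM in WT (log2 fold change -0.14, SE 0.061, edgeR adjusted p = 0.0889). Plk1, Polo-like kinase 1, was lower over all kept cells (-0.77) and in dividing cells (-0.26). Aurka, Aurora A kinase, was lower over all kept cells (-0.76) and at -0.28, not called, in dividing cells. Plk1 lost its dividing-cell call without Txnip-KO 1, Txnip-KO 2, WT 1, WT 2 or WT 3 and Tpx2 without WT 2.

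For the spindle checkpoint, 4 of 4 members were lower over all kept cells (median -0.68), and 3 of 4 lower in dividing cells (median -0.25). Bub1, the checkpoint kinase at the kinetochore, had 6.69, 7.77 and 6.97 CPM in Txnip-KO and 14.2, 13.7 and 11.6 CPM in WT (log2 fold change -0.88, SE 0.11, edgeR adjusted p = 0.00141). Among dividing cells Bub1 had 23.8, 24.5 and 24.8 CPM in Txnip-KO and 31.2, 30.7 and 29.1 CPM in WT, a smaller difference with the groups still apart (log2 fold change -0.32, SE 0.066, edgeR adjusted p = 0.00637). Bub1b (BubR1), part of the complex that holds back the anaphase-promoting complex, had 14.7, 16 and 14.5 CPM in Txnip-KO and 29, 26.7 and 20.9 CPM in WT (log2 fold change -0.76, SE 0.12, edgeR adjusted p = 0.00281). In dividing cells Bub1b stood at 44.6, 45.6 and 44.3 CPM in Txnip-KO, against 60.4, 57 and 49.4 CPM in WT, again without overlap (log2 fold change -0.31, SE 0.079, edgeR adjusted p = 0.0146). Mad2l1 (Mad2), another part of that complex, had 21.8, 26.6 and 22.8 CPM in Txnip-KO and 36, 36.4 and 32.9 CPM in WT (log2 fold change -0.56, SE 0.088, edgeR adjusted p = 0.00274). In dividing cells Mad2l1 had 55.8, 62.8 and 60.4 CPM in Txnip-KO and 66.6, 68.5 and 68.4 CPM in WT (log2 fold change -0.18, SE 0.065, edgeR adjusted p = 0.0483). Ttk, the kinase Mps1 that starts checkpoint signalling, was lower over all kept cells (-0.60) and at -0.029, not called, in dividing cells. Bub1b lost its dividing-cell call without WT 1 or WT 2 and Mad2l1 without Txnip-KO 1, Txnip-KO 3, WT 1, WT 2 or WT 3.

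Both members of the anaphase-promoting complex were lower over all kept cells and in dividing cells. Ube2c, the ubiquitin-conjugating enzyme that starts chains on its targets, had 38.2, 47 and 43.4 CPM in Txnip-KO and 78.7, 79.7 and 66.9 CPM in WT (log2 fold change -0.81, SE 0.10, edgeR adjusted p = 0.00146). In dividing cells Ube2c had 133, 149 and 151 CPM in Txnip-KO and 169, 175 and 163 CPM in WT, with every Txnip-KO sample below every WT sample (log2 fold change -0.23, SE 0.076, edgeR adjusted p = 0.0396). Cdc20, the activator that brings in cyclin B and securin, had 20.6, 23.5 and 19.7 CPM in Txnip-KO and 37.9, 37.6 and 32.8 CPM in WT (log2 fold change -0.76, SE 0.09, edgeR adjusted p = 0.00129). Its dividing-cell levels were 61.1, 60.3 and 55.9 CPM in Txnip-KO, against 74.7, 74.2 and 72.2 CPM in WT, also apart (log2 fold change -0.32, SE 0.062, edgeR adjusted p = 0.005). Ube2c lost its dividing-cell call without Txnip-KO 1, Txnip-KO 2, WT 1, WT 2 or WT 3.

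For the chromosomal passenger complex, which corrects wrong attachments and later guides cytokinesis, 3 of 3 members were lower over all kept cells (median -0.91), and 2 of 3 lower in dividing cells (median -0.36). Birc5 (survivin), which docks the complex on chromatin, had 34.5, 42.3 and 40.1 CPM in Txnip-KO and 80.2, 83.5 and 71 CPM in WT (log2 fold change -1.01, SE 0.10, edgeR adjusted p = 0.00083). Its dividing cells held 123, 134 and 143 CPM in Txnip-KO, against 176, 188 and 180.3 CPM in WT (log2 fold change -0.44, SE 0.077, edgeR adjusted p = 0.00328), so the groups stood apart in both. Cdca8 (borealin), its partner, had 34.5, 44.6 and 38.3 CPM in Txnip-KO and 79.6, 77.2 and 63.3 CPM in WT (log2 fold change -0.91, SE 0.12, edgeR adjusted p = 0.0017). In dividing cells Cdca8 had 117, 135 and 128 CPM in Txnip-KO and 169, 167 and 153 CPM in WT (log2 fold change -0.36, SE 0.078, edgeR adjusted p = 0.00738). Aurkb, Aurora B, the kinase of the complex, was lower over all kept cells (-0.66) and at -0.15, not called, in dividing cells.

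At the centromere and kinetochore, 9 of 10 members were lower over all kept cells (median -0.77), and 6 of 10 lower in dividing cells (median -0.26). Cenpa, the histone H3 variant that marks the centromere, was the member not called over all kept cells, with 65.5, 73.1 and 82.7 CPM in Txnip-KO and 86.1, 85.8 and 76.6 CPM in WT and overlapping groups (log2 fold change -0.17, SE 0.10, edgeR adjusted p = 0.191). In dividing cells every Txnip-KO sample was above every WT sample for Cenpa, at 164, 169.5 and 185 CPM in Txnip-KO, against 160.5, 161 and 153 CPM in WT, without a call (log2 fold change 0.13, SE 0.071, edgeR adjusted p = 0.186). Cenpf, a large protein of the outer kinetochore, had 44.2, 47.6 and 43.2 CPM in Txnip-KO and 68.4, 65.7 and 52.2 CPM in WT and was lower over all kept cells (log2 fold change -0.46, SE 0.10, edgeR adjusted p = 0.00987). In dividing cells Cenpf overlapped, at 151, 144 and 145 CPM in Txnip-KO, against 145, 141 and 123 CPM in WT (log2 fold change 0.11, SE 0.079, edgeR adjusted p = 0.303). Knstrn (kinastrin), which helps to align chromosomes, had the smallest p of all members, with 17, 19.9 and 18.5 CPM in Txnip-KO and 34.1, 34.4 and 31.8 CPM in WT (log2 fold change -0.86, SE 0.076, edgeR adjusted p = 0.000726). In dividing cells Knstrn stayed apart at 49, 50.8 and 51.3 CPM in Txnip-KO, against 62.3, 66.1 and 63.5 CPM in WT (log2 fold change -0.34, SE 0.059, edgeR adjusted p = 0.00322). Of the 4 subunits of the Ndc80 complex, the microtubule grip of the kinetochore, all were lower over all kept cells: Spc24 at -1.10, Spc25 at -0.89, Nuf2 at -0.89 and Ndc80 at -0.50. In dividing cells Spc24 (-0.57), Spc25 (-0.35) and Nuf2 (-0.33) were lower, and Ndc80 (-0.037) was not called. The inner kinetochore genes Cenpm (-1.13 and -0.67) and Cenph (-0.61 and -0.20) were lower over all kept cells and in dividing cells. Cenpe, the kinetochore motor that moves chromosomes to the spindle equator, was lower over all kept cells (-0.69) and at -0.15, not called, in dividing cells. Spc25 lost its dividing-cell call without WT 2 and Cenph without Txnip-KO 1, Txnip-KO 3, WT 1, WT 2 or WT 3. Cenpa was called lower over all kept cells without Txnip-KO 3 (-0.26).

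All 6 kinesin motors were lower over all kept cells (median -0.66), but 1 of 6 in dividing cells (median -0.11). That one was Kif20a, a motor of cytokinesis, which had 19.1, 19 and 20.6 CPM in Txnip-KO and 24.9, 24.8 and 24 CPM in WT in dividing cells (log2 fold change -0.33, SE 0.073, edgeR adjusted p = 0.00846). Kif20a over all kept cells had 5.66, 6.23 and 5.97 CPM in Txnip-KO and 11.5, 11.3 and 9.75 CPM in WT (log2 fold change -0.86, SE 0.10, edgeR adjusted p = 0.00127). Kif11 (Eg5), which pushes the spindle poles apart, had 28.7, 28 and 21.6 CPM in Txnip-KO and 45.3, 42.4 and 33.2 CPM in WT over all kept cells, without overlap (log2 fold change -0.63, SE 0.14, edgeR adjusted p = 0.00973). In dividing cells Kif11 overlapped at 98.5, 87.7 and 75.7 CPM in Txnip-KO, against 98.6, 95.6 and 82.5 CPM in WT (log2 fold change -0.079, SE 0.10, edgeR adjusted p = 0.575). Kif20b, a motor of late cytokinesis, had 34.4, 36 and 34.6 CPM in Txnip-KO and 46.9, 45.5 and 36.5 CPM in WT, the largest adjusted p among the calls (log2 fold change -0.29, SE 0.10, edgeR adjusted p = 0.0396). In dividing cells each Txnip-KO sample was above each WT sample for Kif20b, at 87.2, 88.1 and 91.2 CPM in Txnip-KO, against 87.1, 85.4 and 73.8 CPM in WT, without a call (log2 fold change 0.11, SE 0.076, edgeR adjusted p = 0.263). Kif2c, which takes apart microtubules at the centromere, Kif4, the chromosome-bound motor, and Kif23, the motor of the spindle midzone, were at -0.75, -0.70 and -0.31 over all kept cells, all lower, and at -0.19, -0.14 and -0.003 in dividing cells, none called. Kif20b lost its call over all kept cells without Txnip-KO 1, Txnip-KO 3, WT 1 or WT 2.

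In the midzone and at cytokinesis, 2 of 3 members were lower over all kept cells (median -0.47), and 1 of 3 lower in dividing cells (median 0.026). Prc1, which bundles the microtubules of the midzone, had 33.2, 36.9 and 34 CPM in Txnip-KO and 54.3, 51.1 and 39.1 CPM in WT (log2 fold change -0.47, SE 0.12, edgeR adjusted p = 0.0145). In dividing cells Prc1 overlapped between groups at 111, 113 and 111 CPM in Txnip-KO, against 117, 112 and 95.7 CPM in WT (log2 fold change 0.048, SE 0.081, edgeR adjusted p = 0.667). Racgap1, the partner of Kif23 in the complex that places the cleavage furrow, had 25.1, 21.1 and 20.4 CPM in Txnip-KO and 34.6, 32.8 and 29.8 CPM in WT (log2 fold change -0.55, SE 0.10, edgeR adjusted p = 0.00397). In dividing cells Racgap1 stood apart at 57.9, 50.2 and 47.8 CPM in Txnip-KO, against 63.2, 60.8 and 59.2 CPM in WT (log2 fold change -0.23, SE 0.079, edgeR adjusted p = 0.0422). Anln (anillin), a scaffold of the contractile ring, was at -0.28 over all kept cells with the groups apart and adjusted p = 0.0538 by edgeR, and at 0.026 in dividing cells, neither called, though it was called lower over all kept cells without WT 3 (-0.38). Prc1 lost its call over all kept cells without WT 2. Racgap1 lost its dividing-cell call without Txnip-KO 2, Txnip-KO 3, WT 1, WT 2 or WT 3.

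Of the tubulins and microtubule binders, 5 of 6 members were lower over all kept cells (median -0.64), and 3 of 6 lower in dividing cells (median -0.21). Stmn1 (stathmin, chr4:134468320-134473843), which binds free tubulin and favours disassembly, had 726, 960.4 and 780.3 CPM in Txnip-KO and 1313, 1400.2 and 1390.3 CPM in WT (log2 fold change -0.73, SE 0.11, edgeR adjusted p = 0.00207). In dividing cells Stmn1 had 1500.2, 1737 and 1563 CPM in Txnip-KO and 2115, 2212 and 2342 CPM in WT (log2 fold change -0.47, SE 0.074, edgeR adjusted p = 0.0023), and the groups stayed apart. Tubb4b, a beta tubulin, had 144, 172 and 167 CPM in Txnip-KO and 280.3, 296 and 276 CPM in WT (log2 fold change -0.82, SE 0.084, edgeR adjusted p = 0.000954). Among dividing cells it had the smallest p of the 49, with 296, 332 and 306 CPM in Txnip-KO and 452, 477 and 456 CPM in WT (log2 fold change -0.57, SE 0.072, edgeR adjusted p = 0.00128). Tuba1b, an alpha tubulin, had 382, 455 and 415 CPM in Txnip-KO and 631, 664 and 628 CPM in WT (log2 fold change -0.62, SE 0.08, edgeR adjusted p = 0.0017). In dividing cells Tuba1b had 908, 951 and 976 CPM in Txnip-KO and 1097, 1138 and 1178 CPM in WT (log2 fold change -0.27, SE 0.065, edgeR adjusted p = 0.0117). Both tubulins have near-identical copies in the genome, so their counts are uncertain to that extent. Nusap1, which bundles microtubules near chromosomes, and Ckap2l, a spindle protein, were lower over all kept cells (-0.59 and -0.66) and not called in dividing cells (-0.047 and -0.15). Ckap2, its relative, was not called in either (-0.21 and 0.17). Tuba1b lost its dividing-cell call without WT 2 or WT 3.

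All 4 genes of chromosome structure were lower over all kept cells (median -0.61), and both condensin subunits in dividing cells. Top2a had 138, 159 and 149.9 CPM in Txnip-KO and 259, 249.9 and 207 CPM in WT (log2 fold change -0.68, SE 0.10, edgeR adjusted p = 0.00223). Smc2, a core subunit of condensin, had 71.2, 83.6 and 71.5 CPM in Txnip-KO and 128, 121 and 109.9 CPM in WT (log2 fold change -0.67, SE 0.09, edgeR adjusted p = 0.00185), so no samples overlapped. In dividing cells Smc2 had 184, 194 and 189 CPM in Txnip-KO and 232, 220.2 and 214 CPM in WT (log2 fold change -0.23, SE 0.068, edgeR adjusted p = 0.0258). Smc4, its partner, had 141, 148 and 138 CPM in Txnip-KO and 205, 189 and 168 CPM in WT (log2 fold change -0.40, SE 0.085, edgeR adjusted p = 0.0082). In dividing cells Smc4 stood apart at 253, 266 and 255 CPM in Txnip-KO, against 327, 311 and 287 CPM in WT (log2 fold change -0.26, SE 0.073, edgeR adjusted p = 0.0213). Mki67 was lower over all kept cells (-0.56). In dividing cells, which they define, Mki67 was at 0.017 and Top2a at -0.14, given with no test. Smc2 lost its dividing-cell call without WT 1, WT 2 or WT 3 and Smc4 without WT 1 or WT 2. In all, 44 of the 47 calls over all kept cells and 14 of the 28 in dividing cells held with each library left out in turn.

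The share of dividing cells was lower in every Txnip-KO sample than in every WT sample. Dividing cells made up 14.8% ± 2.19 of Txnip-KO and 24.5% ± 2.28 of WT kept cells (SD, n = 3 each), a difference of -9.7 percentage points. A two-sided exact permutation test gave p = 0.1, the smallest that 3 samples against 3 allow. With each cell thinned to 1000 UMIs and at least 1 UMI of the gate genes asked for, the shares were 8.02% in Txnip-KO and 12.5% in WT. Of the 49 members' UMIs, 66.4% ± 1.4 lay in dividing cells in Txnip-KO and 76.7% ± 3.32 in WT. Of the barcodes taken out as doublets 42.3% passed the dividing gate, against 19.5% of kept cells.

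By type, the share was lower in Txnip-KO in 9 of 14 types (64.3%), tested with edgeR on numbers of dividing cells with the number of gated cells as offset. That fit pooled its estimate of spread over the 14 types, which come from the same samples and are not independent. Its p-values can therefore overstate what 3 samples against 3 show for a single type. Cells of several types were shallower in Txnip-KO, so each ratio was also taken after thinning every cell to 1000 UMIs. Thinning ended 3 of these calls, in HSC-gated cells (log2 ratio -0.43, edgeR adjusted p = 0.0854), granulocyte-monocyte progenitors (log2 ratio -0.24, edgeR adjusted p = 0.0654) and megakaryocyte-lineage cells (log2 ratio -0.20, edgeR adjusted p = 0.42), and a call was gained in basophil or mast cells (log2 ratio -0.54, edgeR adjusted p = 0.0432). Among B-lineage cells 4.38% ± 3.0 of Txnip-KO and 15.6% ± 0.507 of WT cells were dividing (log2 ratio -1.85, SE 0.52, edgeR adjusted p = 0.00206). Outside the dividing gate these cells had a median of 3469 UMIs in Txnip-KO and 8930 in WT, and the thinned log2 ratio was -1.13 (edgeR adjusted p = 0.0211). Among conventional dendritic cells 5.4% ± 1.86 of Txnip-KO and 15.2% ± 4.29 of WT cells were dividing (log2 ratio -1.48, SE 0.54, edgeR adjusted p = 0.0152), and among plasmacytoid dendritic cells 6.09% ± 2.66 of Txnip-KO and 12.9% ± 1.73 of WT (log2 ratio -1.06, SE 0.39, edgeR adjusted p = 0.0152). After thinning the log2 ratio was -2.08 in conventional and -1.11 in plasmacytoid dendritic cells, both still called. In lymphoid-primed progenitors, marked by Flt3 and Dntt, the shares were 15.2% ± 1.05 of Txnip-KO and 30.1% ± 2.45 of WT cells (log2 ratio -0.98, SE 0.17, edgeR adjusted p = 3.39e-06). Erythroid cells had 25.8% ± 2.29 of Txnip-KO and 45.8% ± 2.9 of WT cells dividing (log2 ratio -0.84, SE 0.14, edgeR adjusted p = 2.2e-06), and HSC-gated cells, marked by Hlf, Mecom, Procr and Fgd5, 12.4% ± 0.318 of Txnip-KO and 20.9% ± 6.04 of WT (log2 ratio -0.76, SE 0.18, edgeR adjusted p = 0.0003, a call that ended with thinning). HSC-gated cells outside the dividing gate had a median of 7965 UMIs in Txnip-KO and 10208 in WT, and granulocyte-monocyte progenitors 10399 in Txnip-KO and 13502.5 in WT. Log2 ratios nearer to 0 were called in the other 3 types. Dividing were 45.7% ± 1.6 of Txnip-KO and 57.4% ± 3.53 of WT granulocyte-monocyte progenitors (log2 ratio -0.33, SE 0.067, edgeR adjusted p = 4.48e-05). Monocyte-lineage cells had 36.7% ± 9.84 of Txnip-KO and 55.1% ± 7.07 of WT cells dividing (log2 ratio -0.62, SE 0.19, edgeR adjusted p = 0.00484). Megakaryocyte-lineage cells had 35.3% ± 3.93 of Txnip-KO and 46.6% ± 7.9 of WT cells dividing (log2 ratio -0.38, SE 0.17, edgeR adjusted p = 0.0455). Not called were neutrophil-lineage (-0.77), basophil or mast (-0.39), NK (-0.98), innate lymphoid (0.26) and T cells (-0.99). The lowest shares were those of NK cells, 1.33% ± 0.801 of Txnip-KO and 2.41% ± 0.522 of WT, whose cells outside the dividing gate had a median of 3241.5 UMIs in Txnip-KO and 4304 in WT. With 1 library left out the call ended for monocyte-lineage cells without Txnip-KO 1 or WT 2, for conventional dendritic cells without Txnip-KO 1, WT 2 or WT 3, for plasmacytoid dendritic cells without Txnip-KO 1, Txnip-KO 3 or WT 2 and for megakaryocyte-lineage cells without Txnip-KO 1, Txnip-KO 3, WT 1 or WT 2, where the replicate block ended it too (-0.38). A call was gained for NK cells without Txnip-KO 2.

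**Figure D2:**
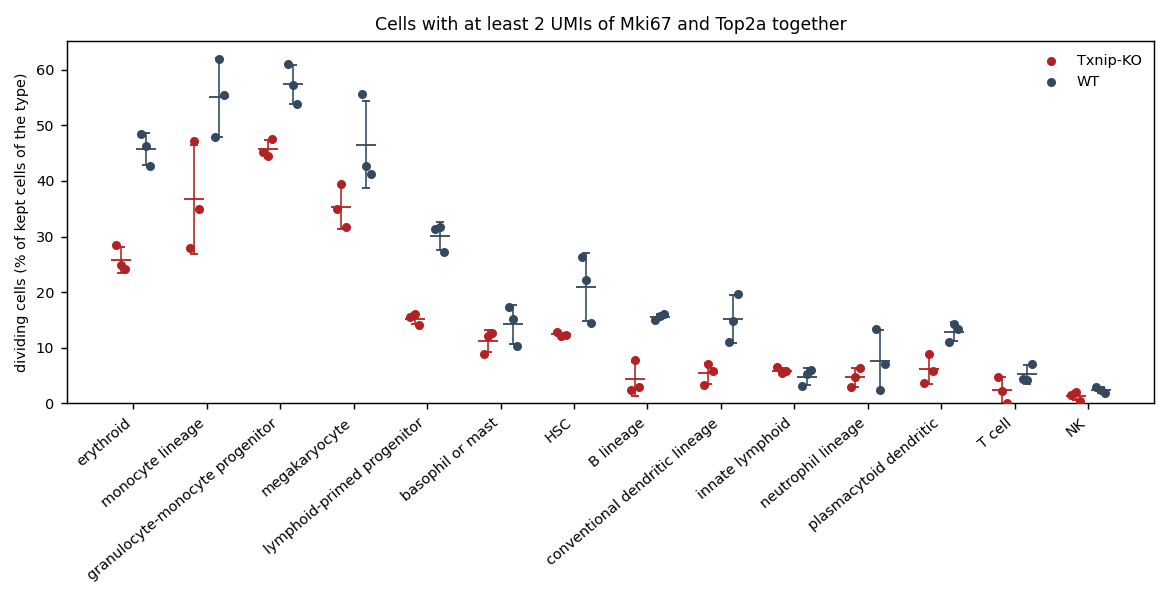
Share of dividing cells (% of kept cells with at least 2 UMIs of Mki67 and Top2a together) by gated cell type, with Txnip-KO left of WT in each type, a point per sample, a line for the mean and bars for 1 SD. Granulocyte-monocyte progenitors hold the highest shares (45.7% in Txnip-KO and 57.4% in WT), and Txnip-KO lies lower in 9 called types, 6 of them still called after thinning.

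The summed level of the 49 members set the types in a graded order, given here as mean CPM over 3 samples. In Txnip-KO the order was granulocyte-monocyte progenitors (4414), megakaryocyte-lineage cells (4320.2), monocyte-lineage cells (3862), erythroid cells (3441), basophil or mast cells (3214), lymphoid-primed progenitors (2639), HSC-gated cells (2571), innate lymphoid cells (2184), B-lineage cells (1285), neutrophil-lineage cells (1219), plasmacytoid dendritic cells (1039), conventional dendritic cells (846), NK cells (716) and T cells (637). In WT it was erythroid cells (5674), monocyte-lineage cells (5674), granulocyte-monocyte progenitors (5649), megakaryocyte-lineage cells (5605), lymphoid-primed progenitors (4412), basophil or mast cells (3581), HSC-gated cells (3379), B-lineage cells (2986), conventional dendritic cells (2556), innate lymphoid cells (2423), neutrophil-lineage cells (2184), plasmacytoid dendritic cells (2095), T cells (1947) and NK cells (1118). Neighbours in this order overlapped between samples with 1 exception in Txnip-KO, between basophil or mast cells and lymphoid-primed progenitors. In WT the exceptions were the steps on both sides of lymphoid-primed progenitors and the last, between T and NK cells. Within a type, Txnip-KO lay below WT with no overlap in 11 of 14 types. T cells held 780.2, 577 and 552 CPM in Txnip-KO and 2137, 1786 and 1917 CPM in WT, a ratio of means of 0.327, and conventional dendritic cells 573, 722 and 1242 CPM in Txnip-KO and 2122, 2428 and 3119.9 CPM in WT (0.331). These were the lowest ratios of the 14 types. The T-cell sums hold few dividing cells, 9, 4 and 0 in Txnip-KO and 7, 7 and 9 in WT, and the T-cell dividing share was not called. B-lineage cells held 718, 1813 and 1324 CPM in Txnip-KO and 3129, 2817 and 3012 CPM in WT (0.43). HSC-gated cells held 2533, 2527 and 2652 CPM in Txnip-KO and 3720.4, 3653 and 2763 CPM in WT (0.761). The groups overlapped in neutrophil-lineage, basophil or mast and innate lymphoid cells, where Txnip-KO held 1153, 779 and 1725 CPM, 2927, 3731 and 2984 CPM and 3207, 1222 and 2123 CPM, against 3475, 1179.8 and 1896 CPM, 3817, 3805 and 3122 CPM and 2487, 2166 and 2617 CPM in WT.

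**Figure D3:**
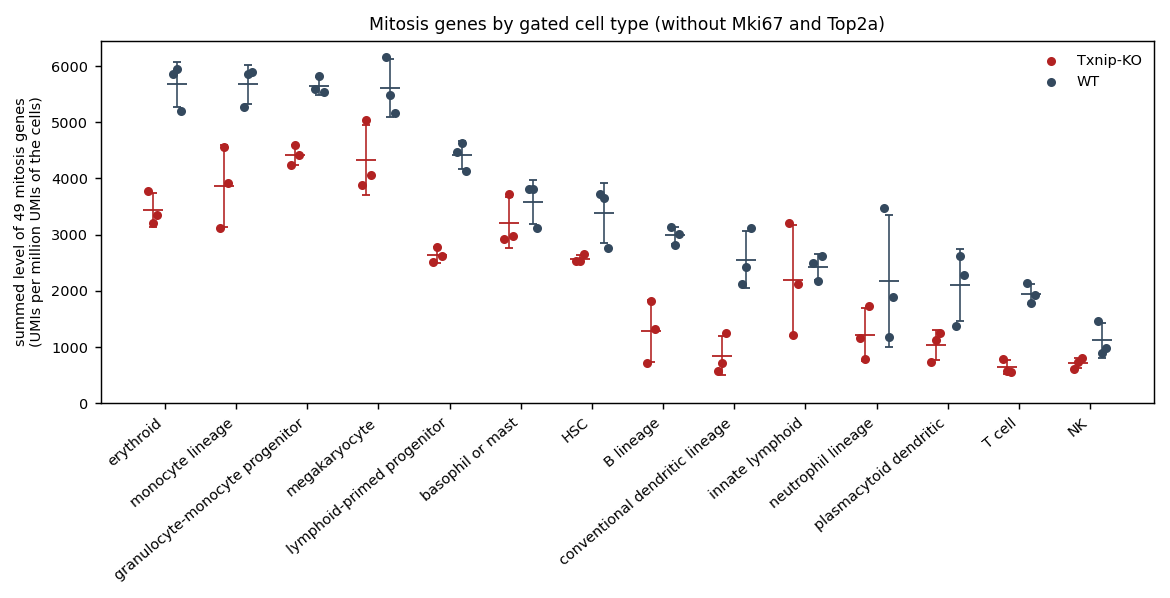
Summed level of 49 mitosis genes (UMIs per 1000000 UMIs of the cells, without Mki67 and Top2a) by gated cell type, with Txnip-KO left of WT, a point per sample, a line for the mean and bars for 1 SD. Txnip-KO samples lie below every WT sample in 11 of the 14 types.

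Gene by gene, no member was called higher in any of the 14 types, while the number lower differed widely. In lymphoid-primed progenitors 49 of 51 members were lower (20.9% of genes tested) and 0 higher (20.3%), led by Ube2c (-1.32), Tubb4b (-1.08) and Cenpe (-1.18). In granulocyte-monocyte progenitors 46 of 51 members were lower (21.8% of genes tested) and 0 higher (19.7%), led by Birc5 (-0.93) and Spc24 (-0.83), and in erythroid cells 44 of 51 members were lower (13.9% of genes tested) and 0 higher (12.5%), led by Spc24 (-1.23). In monocyte-lineage cells 36 of 51 members were lower (5.89% of genes tested) and 0 higher (7.07%), led by Ccnb2 (-0.93), with 10 without WT 3, 16 without WT 2 and 23 without Txnip-KO 3 and 19 under a stricter cell filter. Fewer members were lower in the other types in which all 51 were tested. In megakaryocyte-lineage cells 14 of 51 members were lower (12.9% of genes tested) and 0 higher (11.6%), led by Stmn1 (-0.59), with 5 without WT 1, 6 without Txnip-KO 1 and 7 without WT 2. In basophil or mast cells 10 of 51 members were lower (10% of genes tested) and 0 higher (10.2%), led by Birc5 (-0.81), with 0 without WT 1 or WT 2 and 4 without Txnip-KO 3. In HSC-gated cells 10 of 51 members were lower (16.7% of genes tested) and 0 higher (14.9%), with 6 without WT 1, 17 without Txnip-KO 3 and 24 without WT 3. The lower count of 10 is near the share of all genes, so it says nothing particular of the members. These 10 were Cdk1 (-0.43), Mad2l1 (-0.36), Cenph (-0.67), Cenpm (-0.90), Spc24 (-0.83), Spc25 (-0.77), Stmn1 (-0.67), Tubb4b (-0.93), Tuba1b (-0.69) and Smc2 (-0.45).

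In the other 7 types some members did not pass the filter on low counts, which a member can pass through one genotype alone, so their counts are an account and no support. Lower were 16 of 49 in B-lineage cells (7.48% lower and 8.06% higher), 34 of 40 in conventional dendritic cells (7.32% lower and 6.3% higher), 37 of 47 in plasmacytoid dendritic cells (17.3% lower and 17.7% higher), 10 of 37 in NK cells (14% lower and 12.9% higher), 22 of 27 in T cells (6.64% lower and 6.09% higher), 0 of 42 in innate lymphoid cells (2.3% lower and 2.34% higher) and 0 of 7 in neutrophil-lineage cells (0.0599% lower and 0.419% higher), with the shares of all genes tested in brackets, and no member was higher. In B-lineage cells this was 0 without WT 1, WT 2 or WT 3, 5 without Txnip-KO 3 and 26 without Txnip-KO 2, and 10 with the replicate number as a block, and in conventional dendritic cells 21 without WT 3. In plasmacytoid dendritic cells it was 23 without WT 2, in NK cells 5 without WT 1, 6 without Txnip-KO 1 and 19 without WT 2, in innate lymphoid cells 6 without Txnip-KO 1 and 2 with the replicate block, and in neutrophil-lineage cells 1 without WT 3. Over the types, Cdk1 and Spc24 were each lower in 12 of the 13 types that tested them, Smc2 in 11 of 13, and Stmn1 and Tubb4b in 11 of 14. At the other end, Cdc25c was lower in 1 of 7 and Anln in 1 of 9, members that fewer types could test. This tally takes in the 7 types of this paragraph, so it too is an account and no support.

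**Figure D4:**
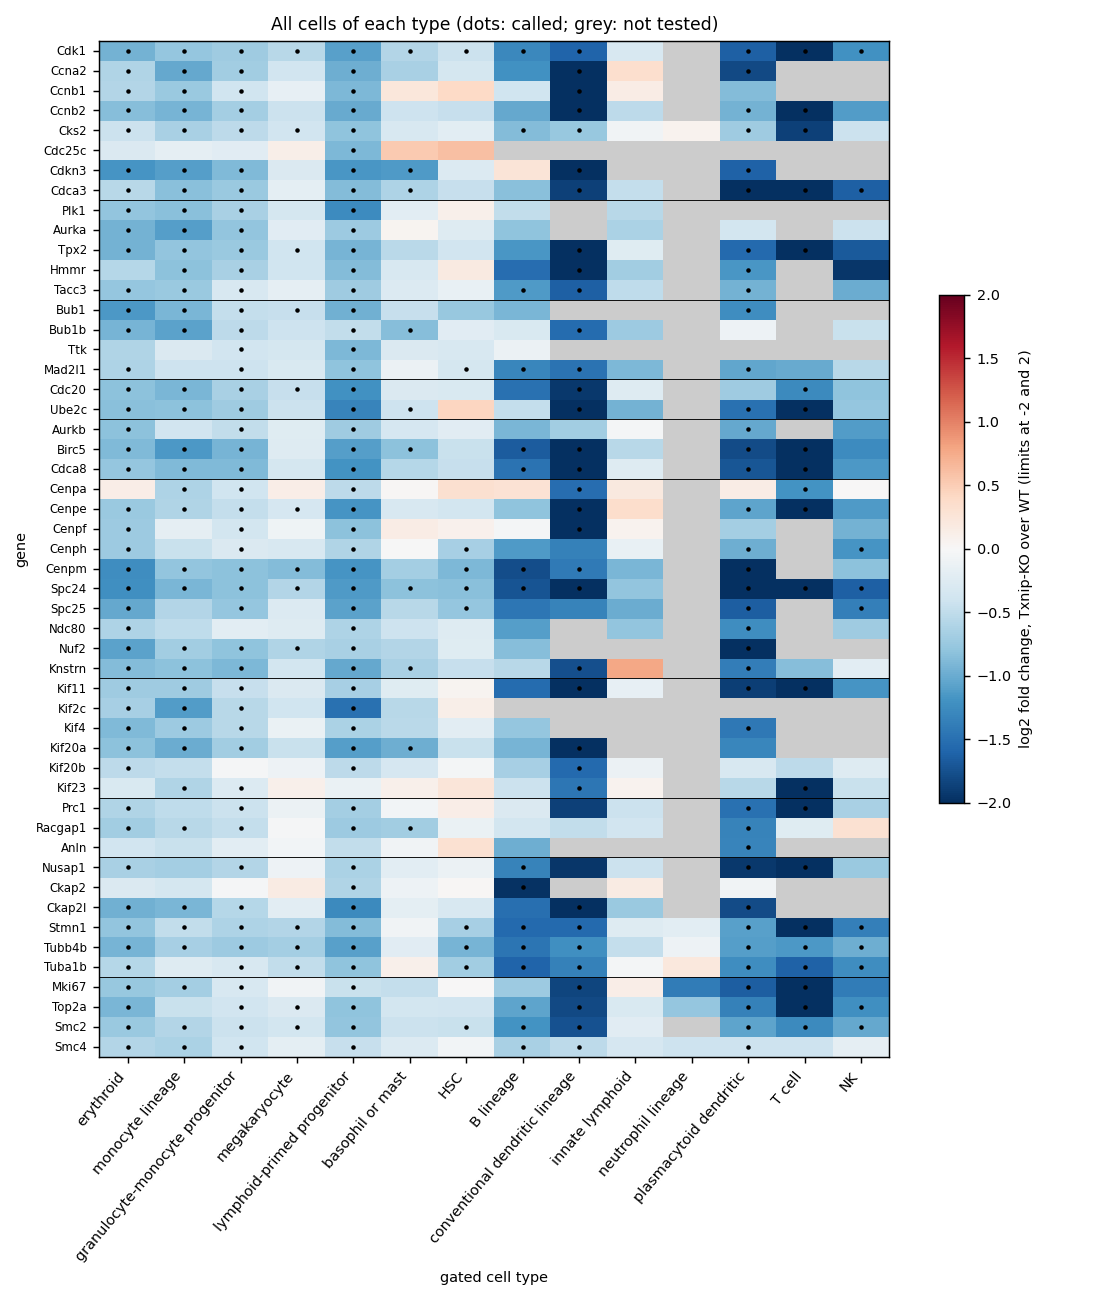
Log2 fold change (Txnip-KO over WT, colour limits at -2 and 2) of each mitosis gene (rows, by role) in each gated cell type (columns), with a dot where the edgeR call passed and blanks where the gene was not tested. Calls fill most of the columns of lymphoid-primed (49), granulocyte-monocyte (46) and erythroid (44) cells and few rows of HSC-gated cells (10).

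Whether a type departed from the others was tested as the genotype effect in that type minus the mean effect of the other 13, with the sample as a block. Types too sparse to test a member alone still entered that mean. By themselves 27 of 51 members passed the filter in T cells and 40 in conventional dendritic cells. There 1 and 0 members had a difference above 0, against 51 in megakaryocyte-lineage and 49 in HSC-gated cells. How far sparse types set the calls below was not tested. Differences were few, 22 over all members and types. They were 2 below in B-lineage cells (5.94% of genes), Tuba1b (-0.99) and Tubb4b (-0.74). Further below the mean were 2 in conventional dendritic cells (0.715% of genes), Cenpa (-1.46) and Knstrn (-1.17). There were 4 below in plasmacytoid dendritic cells (7.01% of genes), Racgap1 (-0.98), Cenpm (-1.06), Spc24 (-1.06) and Tuba1b (-0.67), and 2 below in T cells (0.554% of genes), Stmn1 (-1.78) and Cks2 (-1.43). Above the mean, that is less lowered or higher in Txnip-KO, were 6 in basophil or mast cells (4.93% of genes), Tuba1b (0.77), Tubb4b (0.57), Stmn1 (0.78), Ccnb1 (1.02), Cenpf (0.97) and Cenpe (0.69). The same held for 3 in megakaryocyte-lineage cells (0.108% of genes), Kif4 (1.55), Birc5 (1.12) and Spc25 (1.07), for 2 in neutrophil-lineage cells (4.84% of genes), Tubb4b (1.28) and Cks2 (1.27), and for 1 in NK cells (0.384% of genes), Racgap1 (0.84). HSC-gated, lymphoid-primed, granulocyte-monocyte, monocyte-lineage, erythroid and innate lymphoid cells had 0 called by this edgeR test. In that order 0.0231%, 0.246%, 0.192%, 0.231%, 1.37% and 0.0308% of genes were above. Below were 0.0154%, 0.315%, 0.484%, 0.923%, 0.746% and 0.223% of genes. At an unadjusted p under 0.05 by the same edgeR test there were 39, 1, 20, 4, 6 and 9 members. The share of all genes at that unadjusted threshold was not taken, so these last counts are not read as a result about the members. Over all types the number called was 9 without WT 3 and 11 without WT 2.

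A set of 7 types had at least 20 dividing cells in every sample. In dividing granulocyte-monocyte progenitors, of the 49 members, 29 were lower (17.7% of genes) and 0 higher (16.1%), with a median of -0.33. Knstrn (-0.68), Birc5 (-0.67) and Cdca8 (-0.63) were among the lower ones. In dividing monocyte-lineage cells 20 were lower (11.2% of genes) and 0 higher (11%), with a median of -0.35, among them Cdkn3 (-0.82) and Bub1b (-0.73), with 8 without WT 3, 9 without Txnip-KO 1 and 13 without WT 1 and 11 at a gate of at least 4 UMIs. In dividing lymphoid-primed progenitors 15 were lower (10.5% of genes) and 0 higher (9.17%), with a median of -0.19, among them Kif2c (-0.69) and Cenpe (-0.62), with 23 at a gate of at least 1 UMI. Fewer were called in the other lineages. In dividing erythroid cells 9 were lower (5.96% of genes) and 1 higher (6.57%), with a median of -0.22, with Cenpm (-0.88), Tubb4b (-0.72) and Stmn1 (-0.66) lower and Cenpa (0.48) higher, where the number lower was 4 without Txnip-KO 2, WT 1 or WT 2 and 14 without Txnip-KO 3, and 4 and 20 at gates of at least 4 UMIs and 1 UMI. In dividing megakaryocyte-lineage cells 4 were lower (9.47% of genes) and 2 higher (7.92%), with a median of -0.044, with Cenpm (-0.52), Tubb4b (-0.51), Stmn1 (-0.34) and Tuba1b (-0.22) lower and Cenpa (0.42) and Ckap2 (0.39) higher. In dividing basophil or mast cells 4 were lower (9.57% of genes) and 1 higher (8.65%), with a median of -0.13, with Cdkn3 (-0.86), Spc24 (-0.61), Bub1b (-0.60) and Birc5 (-0.57) lower and Cenpf (0.45) higher, where the number lower was 0 without WT 2 and 1 without Txnip-KO 3. Both counts in megakaryocyte-lineage and in basophil or mast cells, and the higher count in erythroid cells, are near or under the shares of all genes. They say nothing particular of the members. The number higher was 0 without Txnip-KO 1, Txnip-KO 2, WT 1, WT 2 or WT 3 and 2 without Txnip-KO 3 in basophil or mast cells. It was 0 without WT 3 in erythroid cells and 0 without Txnip-KO 2, WT 2 or WT 3, 1 without Txnip-KO 3 and 4 without Txnip-KO 1 in megakaryocyte-lineage cells.

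In dividing HSC-gated cells the calls went both ways, with more higher than lower. There 14 of 49 members were higher in Txnip-KO (7.32% of genes) and 4 lower (8.64%). The lower count is near the share of all genes, so it says nothing particular of the members. A log2 fold change above 0 was found in 41 members, and the median was 0.24. These cells numbered 114, 147 and 88 in Txnip-KO and 128, 114 and 64 in WT, with a median of 13737 UMIs per cell in Txnip-KO and 15726.5 in WT. Ube2c had 149, 189.8 and 235 CPM in Txnip-KO and 106, 84.5 and 73 CPM in WT, so the lowest Txnip-KO sample was above the highest WT sample (log2 fold change 1.07, SE 0.14, edgeR adjusted p = 9.7e-08). Ccnb1 had 50.7, 66 and 86.4 CPM in Txnip-KO and 27.2, 40.5 and 30.7 CPM in WT (log2 fold change 1.01, SE 0.18, edgeR adjusted p = 4.41e-05). The groups were apart for Cenpa too, at 174, 203 and 245 CPM in Txnip-KO, against 120.3, 145 and 95.2 CPM in WT (log2 fold change 0.75, SE 0.13, edgeR adjusted p = 4.33e-05). Hmmr had 75.1, 96.2 and 126 CPM in Txnip-KO and 59.2, 64.2 and 40.2 CPM in WT (log2 fold change 0.78, SE 0.15, edgeR adjusted p = 0.000284). No samples overlapped for Prc1 either, at 152, 174 and 162 CPM in Txnip-KO, against 115, 96.1 and 75.1 CPM in WT (log2 fold change 0.73, SE 0.13, edgeR adjusted p = 4.69e-05). Cdc25c had 14, 21.3 and 17.1 CPM in Txnip-KO and 6.79, 12.2 and 2.12 CPM in WT (log2 fold change 1.17, SE 0.32, edgeR adjusted p = 0.00719). The other higher members were Cenpf (0.73), Kif11 (0.66), Kif2c (0.65), Kif20b (0.49), Kif23 (0.66), Anln (0.60), Tacc3 (0.43) and Nusap1 (0.46). They include 4 of the 6 kinesin motors and 2 of the 3 genes of the midzone and cytokinesis. Stmn1 was lower, with 1804, 1887 and 1826 CPM in Txnip-KO and 2329, 2553 and 2497 CPM in WT (log2 fold change -0.42, SE 0.091, edgeR adjusted p = 0.000934). Tubb4b was lower too, with 323, 369 and 330.3 CPM in Txnip-KO and 465, 505 and 438 CPM in WT (log2 fold change -0.46, SE 0.11, edgeR adjusted p = 0.00146), as were Tuba1b (-0.36) and Cenpm (-0.43). Summed over the 49 members, dividing HSC-gated cells held 7561, 7549 and 7718 CPM in Txnip-KO and 7235, 7793 and 6876 CPM in WT, and the groups overlapped.

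With libraries left out 1 at a time, the higher count was 9 without Txnip-KO 2 or WT 3, and the lower count 2 without WT 2 or WT 3. By the DESeq2 Wald test 10 were higher and 3 lower, without the filter on low counts 13 and 4, at a gate of at least 4 UMIs 12 and 3, and without doublet removal 14 and 4. The same contrast between types, run among dividing cells after the data were seen, put 22 members above and 0 below the mean of the other 6 types in HSC-gated cells (0.808% of genes above), with a median difference of 0.53 against -0.019 over all genes. The smallest p were those of Ube2c (1.36, SE 0.22), Prc1 (0.72, SE 0.13), Hmmr (0.94, SE 0.18), Ccnb1 (1.03, SE 0.21), Kif11 (0.74, SE 0.15) and Cenpa (0.66, SE 0.14). The number above was 12 without WT 1, 13 without Txnip-KO 3 and 14 without WT 3. Without doublet removal it was 14, and at gates of at least 4 UMIs and 1 UMI 9 and 26. HSC-gated cells made up 13.2% ± 3.37 of Txnip-KO and 7.25% ± 0.666 of WT kept cells. Which cells pass a gate of marker UMIs can differ between genotypes, and its part in this result was not tested.

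**Figure D5:**
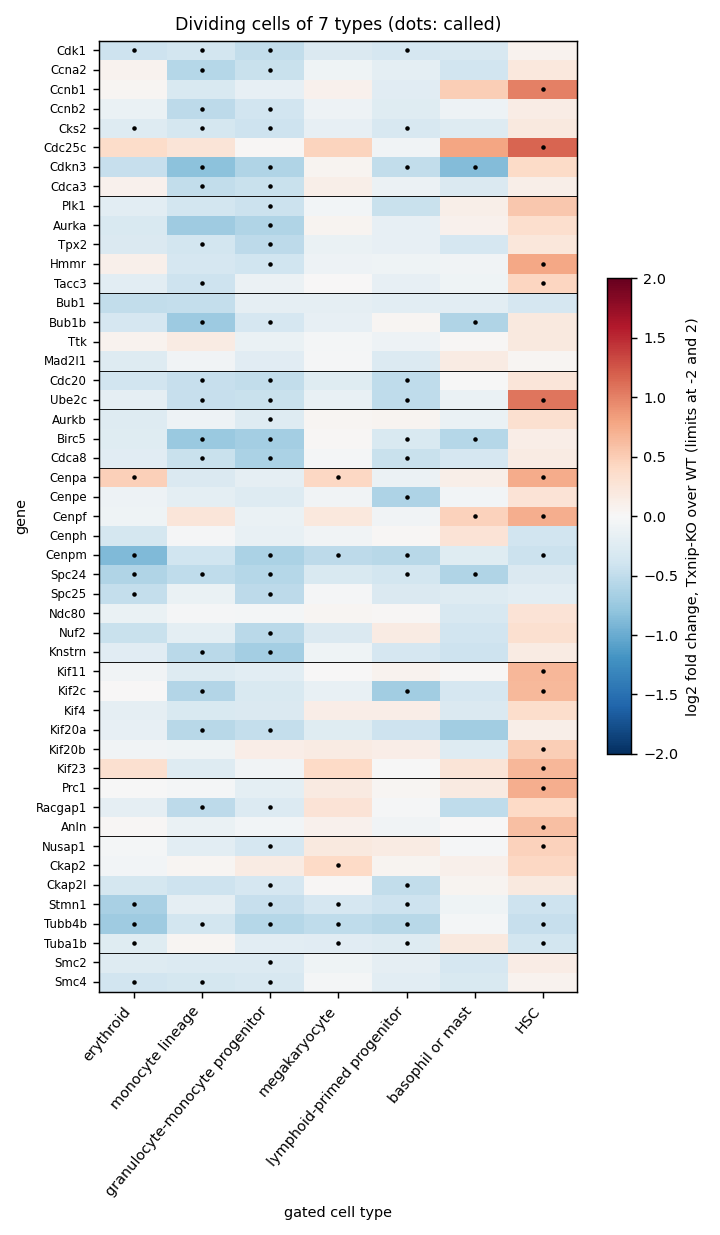
Log2 fold change (Txnip-KO over WT, colour limits at -2 and 2) of 49 mitosis genes (rows, by role) in dividing cells of 7 gated types (columns), with a dot where the edgeR call passed. The column of HSC-gated cells holds 14 higher calls, and that of granulocyte-monocyte progenitors 29 lower calls.

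In the other dividing types this contrast put fewer members apart from the mean, beginning with 5 below in granulocyte-monocyte progenitors (2.15% of genes), Cdca8 (-0.39), Birc5 (-0.36), Prc1 (-0.35), Cenpa (-0.38) and Tpx2 (-0.31). There were 8 below in monocyte-lineage cells (3.88% of genes), Birc5 (-0.51), Cenpa (-0.57), Racgap1 (-0.52), Bub1b (-0.58), Kif23 (-0.54), Ccna2 (-0.47), Cdca3 (-0.43) and Tacc3 (-0.44), with Stmn1 (0.18) above (2.14%). Erythroid cells had 2 below (2.93%), Stmn1 (-0.33) and Tubb4b (-0.28), and 1 above (4.9%), Cenpa (0.37). Basophil or mast cells had 3 above (3.45%), Tubb4b (0.45), Tuba1b (0.35) and Stmn1 (0.25), and 2 below (5.81%), Kif20b (-0.43) and Racgap1 (-0.52). Megakaryocyte-lineage cells had 2 above (0.655%), Birc5 (0.46) and Racgap1 (0.45), and lymphoid-primed progenitors 1 below (0.467%), Cenpe (-0.55).

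Another 98 genes of mitosis, not among the 51, were listed by role. Over all kept cells 58 of them were lower and 1 higher (background 19.3% and 21.8%), with a median of -0.42. The one higher gene was Anapc16 (0.25), a subunit of the anaphase-promoting complex. Condensin and cohesin genes were lower in 6 of 8 cases, among them Ncaph (-0.79), motors and genes of the spindle and cytokinesis in 14 of 19, among them the spindle motor Kif15 (-0.74). Genes of the checkpoint and passenger complex were lower in 8 of 10 cases, among them Spdl1 (-0.80), which brings dynein to kinetochores, and those of the centromere and kinetochore in 14 of 24, among them Cenpw (-0.69). Cyclin-CDK regulators and transcription factors were lower in 10 of 17, among them Pkmyt1 (-0.67), the kinase that inhibits Cdk1. The anaphase-promoting complex and separase list had the smallest share, 6 of 20 lower, among them Fbxo5 (-0.71), an inhibitor of that complex. In dividing cells 24 of 98 were lower and 4 higher (18.9% and 18.9% of genes), with a median of -0.088. The higher ones were Cdc25b (0.35), Hjurp (0.22), which deposits Cenpa at the centromere, Cit (0.31), a kinase of cytokinesis, and Ncapd2 (0.24), a condensin subunit. The lower count is near the share of all genes and the higher count under it, so neither is read as a result about these genes. In dividing HSC-gated cells 12 of the 97 tested were higher and 3 lower (7.32% and 8.64%), with a median of 0.18.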

How the data were processed

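The authors deposited a matrix of raw UMI counts per gene and cell for each of the 6 samples. Per the submitters' processing notes, CASAVA 1.8, Cell Ranger 6.1.1 and Seurat 2.3.4 were used, while the genome build of the counts is not given there. Barcodes with at least 500 genes, at least 1000 UMIs and at most 10% mitochondrial UMIs passed the filter (44399 barcodes). Scrublet (scanpy 1.11.5) scored doublets, and the highest scores were removed up to 0.8% per 1000 barcodes of a sample. Between 9 and 23 barcodes were shared by pairs of libraries. Cells got a type when they passed exactly 1 of 14 gates on marker UMIs.

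UMIs were summed per sample, and tested with edgeR 4.0.16 (filterByExpr, TMM, quasi-likelihood test) under R 4.3.3, with Benjamini-Hochberg adjustment over all genes tested and a threshold of 0.05. DESeq2 1.42.0 was an alternative. Others were no filter on low counts, a stricter cell filter (1000 genes, 2000 UMIs, 5% mitochondrial), no doublet removal, thinning to 1000 UMIs, other dividing gates, equal cell numbers per type, a replicate block and leaving out each library. The fitting step was tested on simulated data with 200 changed genes. SE is the log2 fold change divided by the square root of F. Same-numbered samples deviated together (correlations 0.174, 0.148 and 0.194, against -0.154 to -0.039 for other pairs), so the replicate block was run as an alternative. The main fits of genotype and the permutation test took no account of this pairing. The members and lists were chosen with earlier results of these data known. In each role group, per-sample values are given for the 2 members with the highest mean CPM and the member with the smallest p over all kept cells, and for a member called in the other direction in dividing cells. Gene positions come from GENCODE vM21 on GRCm38, matched by gene ID.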

Additional observations from a re-analysis of the deposited data

Results flagged for a closer look

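The effect of genotype differed between gated cell types for some members, by a test of the difference itself (edgeR, adjusted p under 0.05 over all genes). Each count below is followed by the share of all genes tested that was called in the same direction in the same type. Over all cells, with 51 members, those below the mean effect of the other types were 2 in conventional dendritic cells (0.715%), 2 in T cells (0.554%), 4 in plasmacytoid dendritic cells (7.01%) and 2 in B-lineage cells (5.94%). Those above were 6 in basophil or mast cells (4.93%), 3 in megakaryocyte-lineage cells (0.108%), 1 in NK cells (0.384%) and 2 in neutrophil-lineage cells (4.84%). In plasmacytoid dendritic, B-lineage and neutrophil-lineage cells the members' share is near or under that of all genes, so these counts say nothing particular of the members. By themselves 7 of 51 members passed the filter in neutrophil-lineage cells, 27 in T cells and 40 in conventional dendritic cells. Such sparse types still entered the mean of the other types, and their part in these calls was not tested.

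Among dividing cells, with 49 members, 22 lay above the mean effect of the other types in HSC-gated cells (0.808%). Those with the smallest p were Ube2c (1.36), Prc1 (0.72), Hmmr (0.94), Ccnb1 (1.03), Kif11 (0.74) and Cenpa (0.66), as differences on the log2 scale. In the other dividing types the members below the mean were 8 in monocyte-lineage cells (3.88%), 5 in granulocyte-monocyte progenitors (2.15%), 1 in lymphoid-primed progenitors (0.467%), 2 in erythroid cells (2.93%) and 2 in basophil or mast cells (5.81%). Those above were 3 in basophil or mast cells (3.45%), 2 in megakaryocyte-lineage cells (0.655%), 1 in erythroid cells (4.9%) and 1 in monocyte-lineage cells (2.14%). The counts below in basophil or mast and erythroid cells and above in erythroid and monocyte-lineage cells are near or under that background. The contrast among dividing cells was added after the data were seen.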

How the results depend on the processing

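Of the alternatives for single members over all kept cells, 706 values kept their side of the threshold, 42 lost the call and 7 gained it. Another 6 changed sign with a call in one of the fits. In dividing cells 732 kept their side, 72 lost the call and 29 gained it. A change of sign between uncalled values was counted as kept. The 6 changes of sign with a call were all in cells with no UMI of Mki67 or Top2a, at Plk1 0.38, Bub1b 0.15, Prc1 0.11, Anln 0.83, Nusap1 0.40 and Smc4 0.012. In these cells 13 members were lower. A gate of at least 4 UMIs left 14 lower in all dividing cells, 11 in monocyte-lineage cells, 4 in erythroid cells and 2 in megakaryocyte-lineage cells, and 9 above the mean of other types in dividing HSC-gated cells, while a gate of at least 1 UMI gave 23 in lymphoid-primed progenitors and 20 in erythroid cells. By the DESeq2 Wald test the lower members were 4 in basophil or mast cells, 6 in NK cells and 10 in T cells over all cells, and 9 in lymphoid-primed progenitors, 13 in monocyte-lineage cells and 2 in basophil or mast cells in dividing cells. With no filter on low counts they were 19 in HSC-gated cells, 29 in B-lineage cells, 3 in neutrophil-lineage cells, 20 in basophil or mast cells, 25 in megakaryocyte-lineage cells, 30 in NK cells, 2 in innate lymphoid cells and 37 in T cells over all cells, and 16 in erythroid cells in dividing cells. Without doublet removal they were 17 in neutrophil-lineage cells, 47 in NK cells and 37 in T cells, and 14 were above the mean of other types in dividing HSC-gated cells. A stricter cell filter gave 19 in monocyte-lineage cells. With the replicate number as a block the lower members were 10 in B-lineage cells and 2 in innate lymphoid cells, and the log2 ratio of the share lost its call in megakaryocyte-lineage cells (-0.38). The block moved no other count by over 1.5 times and changed no other call of a share. The log2 ratios of dividing shares that changed their call were -0.41 in monocyte-lineage cells and -0.22 in megakaryocyte-lineage cells at a gate of at least 1 UMI, -2.62 in NK cells and -2.44 in T cells at a gate of at least 4 UMIs, -0.43 in HSC-gated cells, -0.24 in granulocyte-monocyte progenitors, -0.54 in basophil or mast cells and -0.20 in megakaryocyte-lineage cells after thinning, and -1.53 in neutrophil-lineage cells, -0.35 in megakaryocyte-lineage cells, -0.99 in NK cells and -0.87 in T cells without doublet removal. Over all kept cells thinning, with a gate of at least 1 UMI, moved the difference in share to -4.44 points. The ratio of the Txnip-KO share to the WT share was 0.604 in the main setting and 0.643 after thinning. The cause of these changes was not tested.

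With each library left out in turn, lower members ranged from 44 to 47 over all kept cells and 14 to 27 in dividing cells. By type they ranged from 6 to 24 in HSC-gated cells, 47 to 50 in lymphoid-primed progenitors, 0 to 26 in B-lineage cells, 41 to 47 in granulocyte-monocyte progenitors, 0 to 1 in neutrophil-lineage cells, 10 to 40 in monocyte-lineage cells, 21 to 43 in conventional dendritic cells, 23 to 43 in plasmacytoid dendritic cells, 0 to 14 in basophil or mast cells, 34 to 47 in erythroid cells, 5 to 21 in megakaryocyte-lineage cells, 5 to 19 in NK cells, 0 to 6 in innate lymphoid cells and 22 to 30 in T cells. In dividing cells they ranged from 2 to 4 in HSC-gated cells, 10 to 18 in lymphoid-primed progenitors, 21 to 30 in granulocyte-monocyte progenitors, 8 to 24 in monocyte-lineage cells, 0 to 5 in basophil or mast cells, 4 to 14 in erythroid cells and 3 to 6 in megakaryocyte-lineage cells, with 9 to 15 higher in HSC-gated cells. The members that differed between types ranged from 9 to 30 over all types, and those above in dividing HSC-gated cells from 12 to 19. The difference in dividing share ranged from -11 to -8.94 points, and the log2 ratio from -0.96 to -0.57 in HSC-gated cells, -1.05 to -0.92 in lymphoid-primed progenitors, -2.52 to -1.59 in B-lineage cells, -0.37 to -0.28 in granulocyte-monocyte progenitors, -1.28 to -0.069 in neutrophil-lineage cells, -0.81 to -0.44 in monocyte-lineage cells, -1.66 to -1.26 in conventional dendritic cells, -1.38 to -0.85 in plasmacytoid dendritic cells, -0.58 to -0.20 in basophil or mast cells, -0.90 to -0.79 in erythroid cells, -0.48 to -0.23 in megakaryocyte-lineage cells, -1.47 to -0.45 in NK cells, 0.041 to 0.48 in innate lymphoid cells and -1.97 to -0.51 in T cells.

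Cell types rest on UMI thresholds for a few markers, set after their distributions were seen, and a cell with few UMIs can miss a gate. Txnip-KO cells held fewer UMIs per cell. The dividing gate misses cells in which neither of its genes was sampled, and cells between its thresholds are a continuum. With 3 samples a genotype, 1 library can decide a count, as the ranges show.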
